A study of Oryza sativa with 6 samples.

Results

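The 7 flavonoid biosynthesis genes CHS1, CHS2, CHI, F3H, F3'H, DFR and ANS were chosen by their annotation identifiers. The table searched held 94013 rows of rice (Oryza sativa) anther RNA. The genes were not picked by their measured values, but earlier results of these data were known when they were chosen. All 7 were in the table. RNA came from anthers of 3-month-old plants, sampled between the tetrad and the early microspore stage, from 3 wild-type libraries and 3 libraries of the dmd1 mutant. The labels call the controls the wild type of dmd1 and give neither the mutant allele nor its zygosity, and they do not say how many plants were pooled. The design text calls the libraries biological replicates, but no label names the plants, so p-values measure the spread between these libraries.

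Flavonoids are plant phenolics that begin with chalcone synthase, which joins an activated phenolic acid to malonyl units. Chalcone isomerase closes the ring, flavanone 3-hydroxylase and flavonoid 3'-hydroxylase decorate the flavanone, and dihydroflavonol reductase and anthocyanidin synthase lead to the coloured anthocyanidins. In anthers flavonoids are made largely by the tapetum, the cell layer that feeds the microspores, and are laid down on the pollen surface. In maize and petunia, pollen without chalcone synthase activity is white and does not function well. Member symbols are those given with their identifiers in the selection. Symbols of the other genes named come from general knowledge of rice, and neither kind was checked against an annotation.

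The chalcone synthase transcript CHS1 fell to a small part of its wild-type level in dmd1, while the transcript of the next enzyme, CHI, differed by less than the spread between replicates. Levels are FPKM, fragments relative to the length of the transcript and to all mapped fragments of a library, so that genes can be compared per length. CHS1 (OS11G0530600), which encodes chalcone synthase, had 392, 559 and 360 FPKM in wild-type libraries 1, 2 and 3, against 58.7, 15.9 and 0.683 FPKM in dmd1 libraries 1, 2 and 3. The genotypes did not overlap, and the lowest wild-type value was 6.12 times the highest dmd1 value. The means were 437 ± 107 FPKM in wild type and 25.1 ± 30.1 FPKM in dmd1 (SD, n = 3), or 5.75% of the wild-type mean. The log2 change of FPKM + 1 was -5.17 ± 1.20 (SE), and CHS1 was called lower in dmd1 (limma adjusted p = 0.0398). To be called, a row needed an adjusted p under 0.05 and a change of 1 log2 unit or more. Among the 25474 rows tested, 3.54% were called lower and 3.16% higher, and 6 tested rows, 4 of them called, had a more negative log2 change than CHS1. Over 16 other fits the CHS1 change ran from -6.33 to -3.76, and only 9 of them passed. With every dmd1 value so far below every wild-type value, its sign could not turn in these fits.

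On a fold scale CHS1 varied far more within dmd1 than within wild type. The highest wild-type library was 1.55 times the lowest, whereas dmd1 library 1 was 86.0 times dmd1 library 3. Against the wild-type mean, CHS1 stood at 13.4%, 3.63% and 0.156% in dmd1 libraries 1, 2 and 3. By rank among all rows, CHS1 was between places 232 and 259 in the wild-type libraries and at places 2859, 8952 and 25692 in dmd1 libraries 1, 2 and 3. Without dmd1 library 3, the lowest of the 6, CHS1 still passed (log2 change -3.76, limma adjusted p = 0.0249). The call did not survive the removal of any wild-type library (limma adjusted p = 0.114, 0.0842 and 0.103 without libraries 1, 2 and 3) or of dmd1 library 2 (0.104). It was also lost with a pseudocount of 0.1 (limma adjusted p = 0.0581) and with no filter on low values (0.0635).

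**Figure D1:**
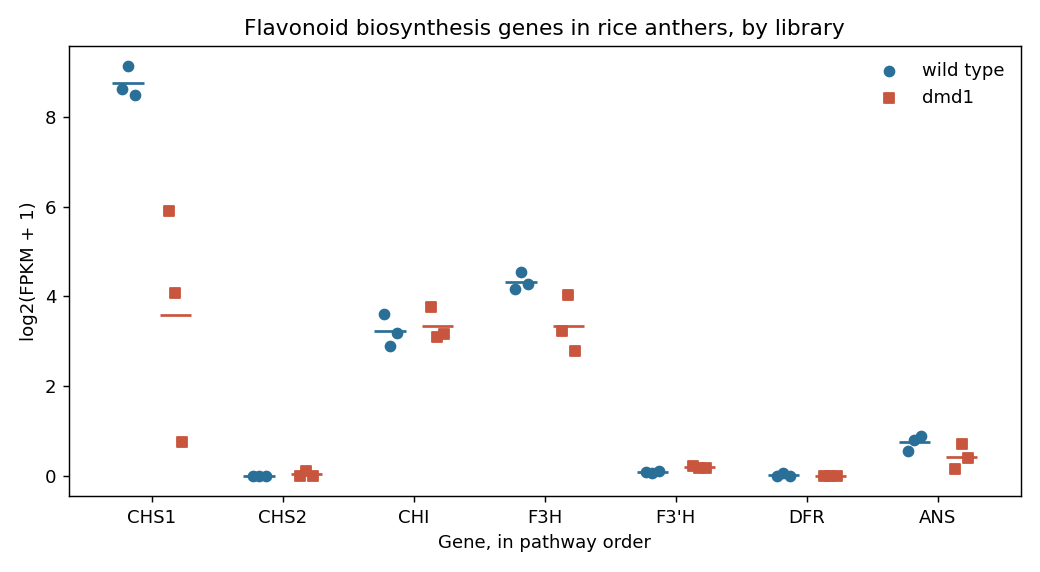
Level of each of the 7 flavonoid genes as log2(FPKM + 1) in the 3 wild-type libraries (circles) and the 3 dmd1 libraries (squares); horizontal lines are group means on this scale. CHS1 runs from 360 to 559 FPKM in wild type and from 0.683 to 58.7 FPKM in dmd1, and CHS2, F3'H and DFR lie near 0 in every library.

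CHS2 (OS07G0214900), the other chalcone synthase gene among the members, was listed at 0 in all 3 wild-type libraries and in dmd1 libraries 1 and 3, and at 0.072 FPKM in dmd1 library 2. Of these 2 rows, CHS1 thus held almost all of the transcript. Related genes of a multigene family can exchange fragments when reads are assigned, and how the counting treated them is not given in the sources used here.

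CHI (OS03G0819600), which encodes chalcone isomerase, had 11.2, 6.45 and 8.10 FPKM in wild-type libraries 1, 2 and 3, against 12.6, 7.55 and 7.89 FPKM in dmd1 libraries 1, 2 and 3. The ranges of the genotypes overlapped. The means were 8.59 ± 2.42 and 9.33 ± 2.79 FPKM (SD, n = 3). Its log2 change was 0.10 ± 0.26 (SE, limma adjusted p = 0.815), and the sign turned with median-of-ratios scaling (-0.015). The difference was smaller than the spread between replicates, which does not show that the levels were equal.

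F3H (OS04G0662600), listed as encoding flavanone 3-hydroxylase, had 17.0, 22.2 and 18.3 FPKM in wild-type libraries 1, 2 and 3. In dmd1 libraries 1, 2 and 3 it was at 8.40, 15.2 and 5.83 FPKM. Every dmd1 value was below every wild-type value, but dmd1 library 2 came close, with the lowest wild-type value only 1.12 times as high. Of all tested rows, 13.1% had every dmd1 value below every wild-type value. The means were 19.2 ± 2.72 and 9.82 ± 4.85 FPKM (SD, n = 3), or 51.2% of the wild-type mean in dmd1. The log2 change of -0.99 ± 0.32 (SE) did not pass (limma adjusted p = 0.0895). Without dmd1 library 2 it passed (log2 change -1.32, limma adjusted p = 0.047).

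The genes that lead to coloured anthocyanidins were at or near 0 in both genotypes. DFR (OS01G0633500), the dihydroflavonol reductase gene, was listed at 0 in 5 libraries and at 0.05 FPKM in wild-type library 2. ANS (OS01G0372500), which encodes anthocyanidin synthase, had 0.475, 0.744 and 0.839 FPKM in wild-type libraries 1, 2 and 3. In dmd1 libraries 1, 2 and 3 the ANS values were 0.116, 0.623 and 0.312 FPKM. The ANS values overlapped between the genotypes. F3'H (OS10G0320100), the flavonoid 3'-hydroxylase gene, had wild-type values of 0.065, 0.038 and 0.08 FPKM, against 0.164, 0.135 and 0.135 FPKM for dmd1. All F3'H values in dmd1 were above those in wild type, but every one was far below the 1 FPKM used as the limit for testing. CHS2, F3'H, DFR and ANS did not reach 1 FPKM in 3 libraries and were not tested. In the fit without that filter, over 37255 rows, their limma adjusted p ran from 0.205 to 0.742.

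Of the 7 members, 3 were therefore tested, 1 was called lower, none was called higher, and 2 were not called. At an adjusted p under 0.05 without a fold minimum the counts were the same 1 lower and none higher, against 5.18% and 7.8% of all tested rows. The order of levels per length in wild type was CHS1, F3H and CHI, and these 3 did not overlap. In dmd1 the order differed between libraries. CHS1 was highest in dmd1 library 1, CHS1 and F3H were close in dmd1 library 2 at 15.9 and 15.2 FPKM, and CHI was highest in dmd1 library 3.

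CHS1 thus made up a different part of the summed transcript of the 7 members in the 2 genotypes. These shares hold for the members alone. The 25 other pathway genes described below summed to between 1496 and 1600 FPKM in wild type and between 345 and 586 FPKM in dmd1. It held 92.9% to 95.0% of the summed FPKM of the 7 members in the wild-type libraries, against 73.4%, 40.2% and 4.60% in dmd1 libraries 1, 2 and 3. The other 6 members together summed to between 27.3 and 29.5 FPKM in wild type and to 21.2, 23.6 and 14.2 FPKM in dmd1 libraries 1, 2 and 3. The ratio of CHS1 to CHI within a library ran from 35.0 to 86.6 in wild type and from 0.0866 to 4.68 in dmd1. The ratio of CHS1 to F3H ran from 19.6 to 25.1 in wild type and from 0.117 to 6.99 in dmd1. Neither ratio overlapped between the genotypes. For each, the two-sided exact permutation test on the log2 ratio gave p = 0.1, unchanged by adjustment over the 2 ratios, and this is the smallest p that 3 libraries against 3 allow.

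The rest of the pathway was read from a list of 25 other genes for precursors, side branches and regulators. Of these, 18 were tested, 4 were called lower, none was called higher, and 14 were not called, where 3.54% of all tested rows were called lower and 3.16% higher. These shares are the background for the counts by group given next. The list was chosen with earlier results of these data known, so its counts describe these genes only. The median log2 change of the tested genes was -0.36, against 0.12 over all tested rows. The 7 untested genes (C4H2, 4CL1, 4CL2, LAR, ANR, ANS2 and B2) were at or below 1.62 FPKM in every library. At these low levels C4H2 was higher in every dmd1 library (0.677, 1.62 and 0.902 FPKM) than in any wild-type library (0.259, 0.113 and 0.329 FPKM). 4CL2 and LAR were lower in every dmd1 library, and 4CL1, ANR, ANS2 and B2 overlapped. Of all tested rows, 25.3% lay wholly higher and 13.1% wholly lower in dmd1. The number called lower dropped to 1 without wild-type library 1 and to 2 without dmd1 library 2. With at least 1 FPKM required in all 6 libraries it was 3, since RC, over that limit only in wild type, was then not tested.

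Among precursor genes, 1 of 4 tested was called lower. The row listed as 4CL5 (OS08G0448000) belongs to the 4-coumarate:CoA ligases, which supply the activated phenolic acid that chalcone synthase uses. It was at 41.4, 30.4 and 24.0 FPKM in wild-type libraries 1, 2 and 3, against 6.65, 6.08 and 3.52 FPKM in dmd1 libraries 1, 2 and 3. Each dmd1 library lay well below each wild-type library, and the fall of 4CL5 on the log2 scale was -2.36 ± 0.27 (SE, limma adjusted p = 0.00676) and passed whichever single library was left out. 4CL3 (OS02G0177600 as listed), of the same family, had means of 31.2 ± 8.0 and 17.3 ± 1.54 FPKM (SD, n = 3). Its log2 change of -0.79 ± 0.20 (SE) passed the adjusted p alone (limma adjusted p = 0.0489). Of the fits without 1 library, 4CL3 kept that p only without wild-type library 2 (limma adjusted p = 0.0237), and in the other 5 the p ran from 0.0912 to 0.146. The other 2 tested precursor genes were not called, and of these C4H1, named after its values were seen, had the smaller p (limma adjusted p = 0.18), with means of 36.6 ± 12.2 FPKM in wild type and 58.7 ± 13.7 FPKM in dmd1 (SD, n = 3).

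Of the 3 chalcone isomerase-like rows, all tested, 2 were called lower, and these 2 were far more abundant than CHI. Proteins of this class do not catalyse ring closure well but are known in other plants to bind chalcone synthase and to favour the right product. The row listed as CHIL2 (OS11G0116300) was at 859, 851 and 860 FPKM in wild-type libraries 1, 2 and 3, against 185, 145 and 40.2 FPKM in dmd1 libraries 1, 2 and 3. Wild-type values were nearly equal and dmd1 library 3 was again the lowest. Its log2 change was -3.05 ± 0.54 (SE, limma adjusted p = 0.02). The row listed as CHIL3 (OS12G0115700) fell from a wild-type mean of 372 ± 16.2 FPKM to 146 ± 38.2 FPKM in dmd1 (SD, n = 3). On the log2 scale CHIL3 changed by -1.38 ± 0.21 (SE, limma adjusted p = 0.0136). The remaining row of this kind, listed as CHIL1 (OS06G0203600), averaged 3.38 and 5.27 FPKM and was not called (limma adjusted p = 0.0771). CHIL2 no longer passed once wild-type library 1 or 3 or dmd1 library 2 was left out (limma adjusted p = 0.0758, 0.0671 and 0.0593), and CHIL3 once wild-type library 1 was (0.0603).

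**Figure D2:**
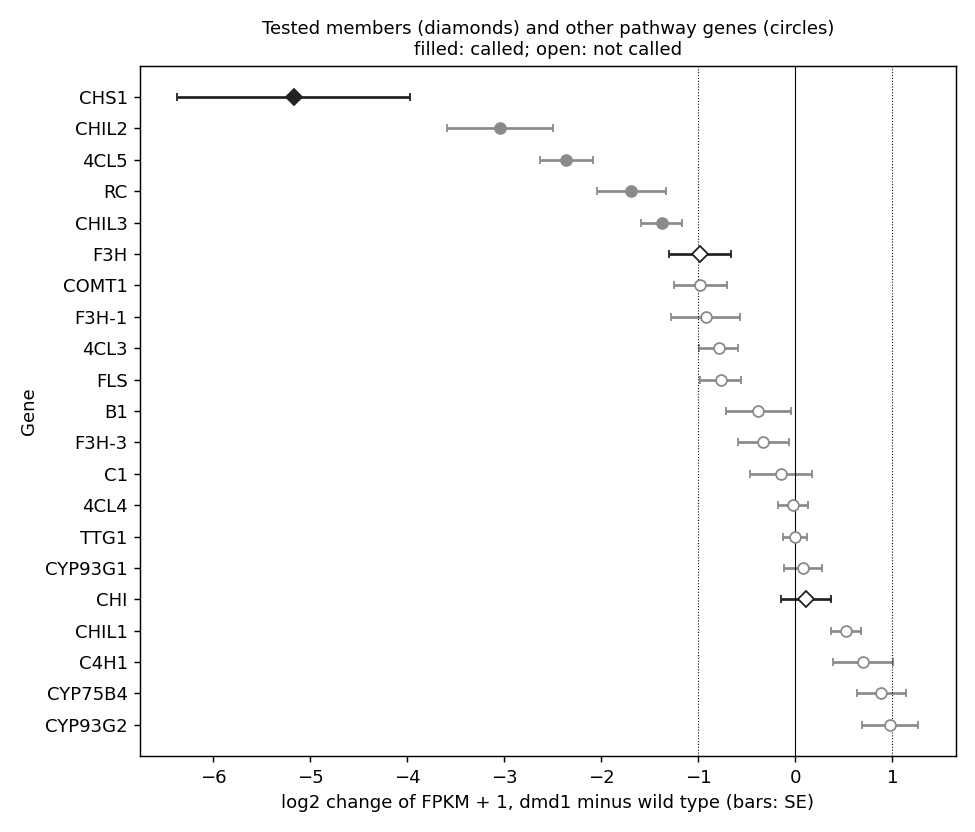
Log2 change of FPKM + 1 in dmd1 minus wild type with its SE for the 3 tested members (diamonds) and 18 tested genes of the wider pathway list (circles); filled marks were called, open marks were not, and dotted lines mark a log2 change of 1 in either direction. CHS1 lies farthest to the left at -5.17, followed by CHIL2 at -3.05 and 4CL5 at -2.36, and CHI lies at 0.10.

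In the flavone branch, which turns flavanones into the flavones that rice stores in quantity, none of 4 tested genes was called. COMT1 (OS08G0157500 as listed), an O-methyltransferase, averaged 116 ± 25.7 and 59.2 ± 19.5 FPKM (SD, n = 3), and its log2 change was -0.98 ± 0.27 (SE, limma adjusted p = 0.0636). It was called with median-of-ratios scaling (log2 change -1.11, limma adjusted p = 0.042). CYP75B4 (OS10G0317900 as listed), a cytochrome P450 that hydroxylates flavones, was at 1.00, 0.668 and 1.33 FPKM in wild-type libraries 1, 2 and 3. In dmd1 libraries 1, 2 and 3 it was at 3.15, 3.40 and 1.69 FPKM. Its groups did not overlap, with dmd1 above wild type as in 25.3% of all tested rows, and its log2 change of 0.89 ± 0.25 (SE) did not pass (limma adjusted p = 0.065). Without dmd1 library 3, CYP75B4 was called higher (log2 change 1.11, limma adjusted p = 0.042).

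In the branch to flavonols and flavanols, none of 3 tested genes was called. FLS (OS02G0767300 as listed), the flavonol synthase gene, averaged 2.95 ± 0.43 and 1.34 ± 0.50 FPKM (SD, n = 3), and its log2 change was -0.77 ± 0.21 (SE, limma adjusted p = 0.0573). It was called without wild-type library 2 and dmd1 library 1 together (log2 change -1.03, limma adjusted p = 0.0412). In some other fits only its adjusted p passed, as with median-of-ratios scaling (log2 change -0.86, limma adjusted p = 0.0379). F3H-1 (OS03G0122300 as listed) averaged 14.9 ± 3.27 and 7.89 ± 4.06 FPKM (SD, n = 3), and its log2 change was -0.92 ± 0.36 (SE, limma adjusted p = 0.135).

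Of 4 tested regulators, 1 was called lower. The row listed as RC (OS07G0211500), a bHLH factor best known for red grain colour, was at 4.44, 2.94 and 1.04 FPKM in wild-type libraries 1, 2 and 3, against 0.116, 0.072 and 0.084 FPKM in dmd1 libraries 1, 2 and 3. All dmd1 values were near 0. The log2 change of FPKM + 1, which understates the change of so low a row, was -1.69 ± 0.36 (SE, limma adjusted p = 0.0316). RC reached the 1 FPKM needed for testing only in the wild-type libraries. Its place among the tested rows, and so its count as called lower, thus rested on the genotype where it was high. With no filter on low values its limma adjusted p was 0.0489. The RC call held without wild-type library 3 but was lost when wild-type library 1 (limma adjusted p = 0.0845) or 2 (0.0695), or dmd1 library 1 (0.0803), 2 (0.1) or 3 (0.0746), was left out. B1 (OS04G0557500 as listed), another bHLH factor, averaged 3.98 ± 2.13 and 2.64 ± 0.66 FPKM (SD, n = 3) and was not called (limma adjusted p = 0.481).

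Some markers of the tapetum, but not all, fell with CHS1. Of 8 tapetum genes 4 were called lower, namely EAT1, CYP703A3, CYP704B2 and PKS1, and none was called higher, against 3.54% and 3.16% of all tested rows. The marker lists too were chosen with earlier results of these data known, so their counts describe the listed genes only. TDR, MYB80, PTC1 and C6 were not called (limma adjusted p = 0.828, 0.806, 0.19 and 0.103). These 4 were not alike. C6 had a log2 change of -6.39 ± 2.18 (SE), with dmd1 library 1 at 854 times dmd1 library 3. Every dmd1 value of C6 was below every wild-type value, as in 13.1% of all tested rows. PTC1 averaged 40.1% of its wild-type mean in dmd1, with overlapping values. Over the 8 genes the median log2 change was -2.21. Their summed level ran from 34437 to 35463 FPKM in wild type and from 3540 to 8432 FPKM in dmd1, and no marker was at 0 in any library. EAT1, a tapetal bHLH factor, was at 21.2%, 11.5% and 3.92% of its wild-type mean in dmd1 libraries 1, 2 and 3. TDR, a bHLH factor that acts in the same layer, was at 104%, 93.4% and 86.0%, and MYB80, a MYB factor of the tapetum, at 93.5%, 107% and 84.8%. In bulk anthers, fewer cells of a type and less RNA per cell cannot be told apart, and the part of the tapetum in the fall of CHS1 was not tested. Of 6 tested green-tissue genes 1 was lower (CAB2R), with the 7 listed genes summing to 286 to 464 FPKM in wild type and 194 to 247 FPKM in dmd1. Of 6 rows listed for late pollen 2 were tested and 1 was lower (MADS63). That list summed to 104 to 154 FPKM in wild type and 36.7 to 67.7 FPKM in dmd1, almost all of it from MADS63. Its row for MADS62 was listed at 0 in 5 of 6 libraries.

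**Figure D3:**
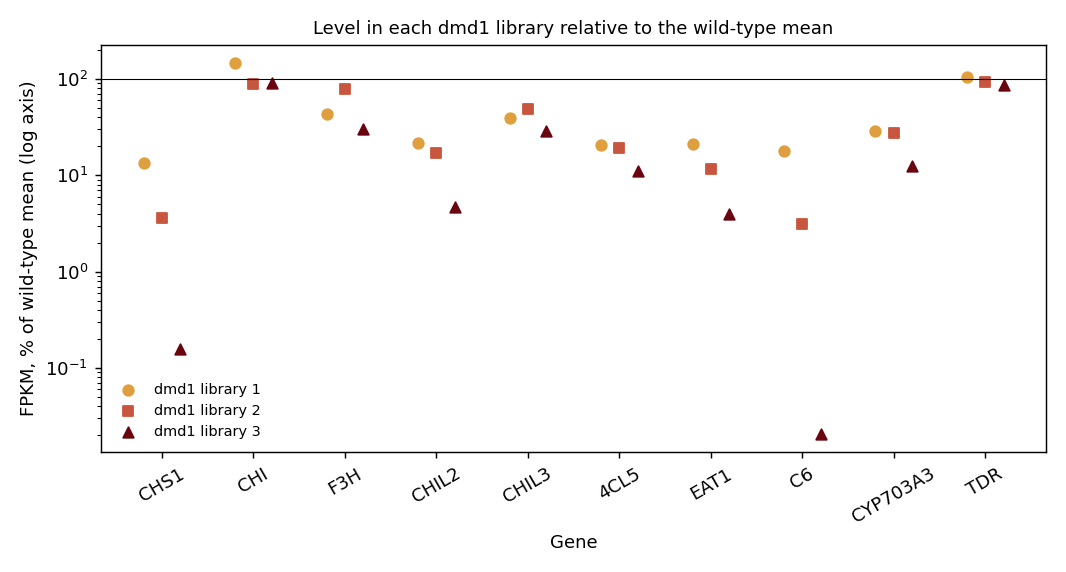
Level in each dmd1 library as a percentage of the wild-type mean (log axis; the line marks 100%) for CHS1, CHI and F3H, for CHIL2, CHIL3 and 4CL5, and for the tapetum markers EAT1, C6, CYP703A3 and TDR. CHS1 steps down from 13.4% to 3.63% and 0.156% over dmd1 libraries 1, 2 and 3, and C6 from 17.7% to 3.12% and 0.0207%, whereas CHI stays between 87.9% and 146%.

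The libraries of dmd1 did not stand at the same level for these genes. Of the 8 tapetum markers 6 had dmd1 library 1 above library 2 and library 2 above library 3, as CHS1 had, and so had 64.0% of the rows called lower and 37.3% of all tested rows. The FPKM totals of dmd1 libraries 1, 2 and 3 fell in the same order (1050340, 909829 and 808227), and no scaling was applied here. Some steps were small, as for CYP704B2 at 1368 and 1362 FPKM in dmd1 libraries 1 and 2. The part of the totals in this order was not tested. The row with the profile nearest to CHS1 over the 6 libraries, among 15727 annotated rows with a mean of at least 5 FPKM, was OS09G0401000. Its wild-type values were 462, 731 and 453 FPKM and its dmd1 values 63.6, 17.9 and 1.15 FPKM, with a root mean square distance of 0.101 on the centred log2 scale. The second nearest was OS05G0573600, at a distance of 0.165. The files give no names for these rows. Of the listed genes EAT1 was the nearest, at place 101 with a distance of 1.25, CHIL2 was at place 127 and C6, a lipid transfer protein gene of the tapetum, at place 131.

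Among the libraries, wild-type library 2 and dmd1 library 1 departed from their group means in a similar way across genes (Pearson's r = 0.494). Genes are not independent replicates, and no label names a batch for this. For dmd1 library 2, r was 0.011, -0.012 and 0.006 with wild-type libraries 1, 2 and 3, so it went with none of them. The split below was drawn from these same correlations. On that side of the split the log2 change was -3.23 for CHS1, -1.31 for F3H and 0.86 for CHI, with 1 library per genotype and no test. On the other side, the remaining 2 libraries per genotype with dmd1 library 2 among them, it was -6.14 for CHS1 (limma adjusted p = 0.0438). It was -0.83 for F3H (0.271) and -0.27 for CHI (0.386). The tested side lacked dmd1 library 1, where CHS1 was highest among the dmd1 libraries (58.7 FPKM). Its libraries were also picked from these data, so its p for CHS1 adds no support. CHS1 was lower in dmd1 on both sides, as it must be in any split, since every dmd1 value lay below every wild-type value. CHI differed in sign between the sides.

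**Figure D4:**
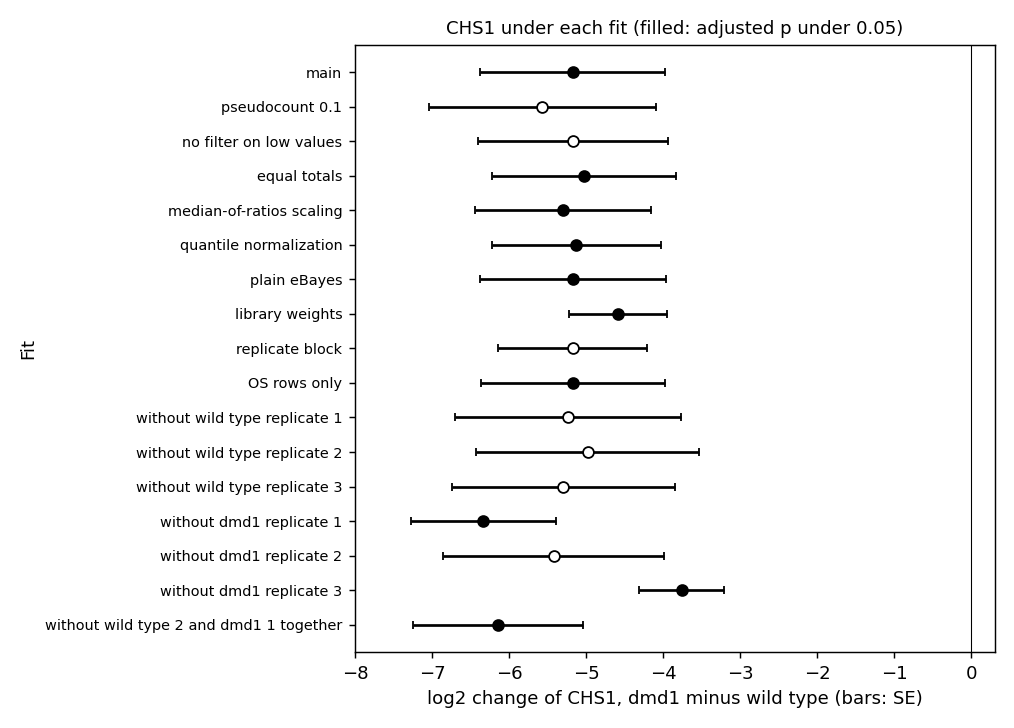
Log2 change of CHS1 in dmd1 minus wild type with its SE in the fit as reported and in 16 other fits; filled marks have an adjusted p under 0.05. The change runs from -6.33 without dmd1 library 1 to -3.76 without dmd1 library 3, and 7 of the 16 other fits do not pass.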

How the data were processed

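The authors deposited 1 table of FPKM values with 1 column per library. Per the submitters' processing notes, fastp, HISAT and RSEM were used with genome build IRGSP-1.0; the sources used here give no versions, annotation, strand setting or filters. Count models do not suit FPKM and were not applied. FPKM totals ran from 808227 to 1287424 per library. Steps among low values gave a relative depth of about 0.857 to 1.28 against wild-type library 1, with only 5.03% to 15.9% of rows under 0.3 FPKM within 0.02 log2 units of the step, so absolute depth is unknown and no counting interval is given. No pair of libraries was identical.

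Rows with at least 1 FPKM in at least 3 of 6 libraries (25474) were tested as log2(FPKM + 1) with limma 3.58.1 in R 4.3.3 (eBayes with trend and robust options), dmd1 minus wild type, with Benjamini-Hochberg adjustment over all tested rows. Fold changes on this scale understate changes of low rows. In data simulated for this comparison over 25474 rows, the fit found 93 of 100 rows with a 2-unit log2 change and 96 of 100 with a 3-unit change. There were 7 false calls among 196. The simulated noise was independent between libraries and of equal spread in both genotypes, and only rows above a set mean level were changed. The measured libraries differ in these respects, so the simulation checks the fit and does not give error rates for these data. Ratios were tested with scipy 1.17.1.

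The members were set by identifier and not by their measured values. They, the pathway list and the marker lists were nevertheless chosen with earlier results of these data known. All members were named, and from each group of the pathway list the called genes and up to 2 with the smallest p; others are said to be chosen after their values were seen, or are named only to account for a list. Replicate numbers are shared between genotypes, but no label ties them. Alternatives were another pseudocount, 2 filters, 3 scalings, plain eBayes, library weights, a replicate block, annotated rows alone and leaving out libraries. No sequence or coordinate was used here, so the promoter motifs planned were not searched, and the level of the DMD1 gene was not analysed here.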

Additional observations from a re-analysis of the deposited data

How the results depend on the processing

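The number of members called lower (1) dropped to 0 with a pseudocount of 0.1, without the filter on low values, with at least 1 FPKM required in all 6 libraries (which removes CHS1, since dmd1 library 3 is under 1) and with the replicate block, and was 0 to 1 when a single library was left out; no member was called higher in any fit. With the block CHS1 kept its log2 change of -5.17 at a limma adjusted p of 0.0536. The libraries share only a number, since same-numbered libraries correlated at -0.346, -0.012 and 0.346, and not every library correlated best with its own number. The sign of CHI turned with median-of-ratios scaling (-0.015), library weights (-0.23), without wild-type library 2 (-0.06), without dmd1 library 1 (-0.11) and without both (-0.27), so that its log2 change lay between -0.11 and 0.29 with a single library left out. F3H ran from -1.32 to -0.70 over those fits and was at -0.32 with library weights. The sign of B1 turned with library weights (0.10). The number of pathway genes called lower was 1 to 3 with a single library left out, against 4, and the number called higher from 0 to 1, with 1 also with library weights. RC was lost with the replicate block (limma adjusted p = 0.0524). The adjusted p of 4CL3 was over 0.05 with the replicate block (0.0583), a pseudocount of 0.1 (0.0506), no filter (0.0742), equal totals (0.15), quantile normalization (0.0504) and plain eBayes (0.0545). Calls over all rows (1709) numbered 2672 with library weights, whose estimation stopped short of its tolerance and which rest mostly on dmd1 library 2 (weight 9.13), and from 671 to 1605 without 1 library (671 without dmd1 library 2, 680 without wild-type library 1 and 934 without wild-type library 3). Rises made up 47.2% of calls, 63.1% with equal totals and 35.3% under median-of-ratios scaling, and the median log2 change of all rows moved from 0.12 to 0.29 and 0.01. The causes of these changes were not tested, apart from the filter that removes CHS1. The unknown depth limits what can be said of CHS2, F3'H, DFR and ANS.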
